A study of Gallus gallus with 2 samples.

Results

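The epithelial to mesenchymal transition (EMT) factors SNAI1, SNAI2, ZEB1, ZEB2, TWIST1 and PRRX1 and the intermediate filament protein vimentin (VIM) were read on 2 GeneChip Chicken Genome arrays of early chick embryo tissue. Every probe set that the platform annotation gives to 1 of these 7 symbols was taken, which gave 17 of 38382 analysed probe sets and 7 of 13009 genes. The array labelled HFR held RNA of heart forming regions that showed EGFP (green fluorescent protein), and the array labelled PPP held RNA of the primitive streak, posterior part. All embryos of both groups had about 12 h of incubation at 37.5 °C before electroporation at Hamburger-Hamilton stage HH3 with pCer2.5-EGFP, an EGFP plasmid under 2.5 kb of Cerberus upstream sequence, and tissue was cut out at HH4 to HH4+ (another label of both samples gives HH4-5). How many embryos went into each RNA is not known from the labels used here, and 45 ng of RNA per array went through a pair of amplification rounds.

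During gastrulation, epiblast cells reach the primitive streak, lose their epithelial junctions and leave as mesoderm and endoderm. SNAI and ZEB proteins are zinc finger repressors that bind E-box motifs in genes such as CDH1 (the epithelial cadherin), while TWIST1 is a bHLH factor that pairs with E proteins and PRRX1 is a paired-type homeobox factor of limb and lateral plate mesenchyme. In the chick, SNAI2 (formerly Slug) is known from the primitive streak and the neural crest, and ZEB2 (also called SIP1) is known for ending the ingression of epiblast cells. Vimentin is the filament protein by which mesenchymal cells are often recognised.

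Each probe set has an intensity that the authors deposited on a linear scale, the model-based expression index (MBEI), with its model standard error (SE) and a call of present, marginal or absent. That error reflects only how far the probes of a set differ on an array, not biological variation. No tissue was replicated, so the number of arrays limits the precision, no p-value is given and each difference compares 2 arrays. Differences are log2 of HFR over PPP, and the level filter kept a probe set if its brighter reading had a present call and was at least 70.8 MBEI. Of 38382 probe sets, the present calls made up 38.4% under the HFR label and 42.2% under the PPP label. The genes that should check the labels did not all follow them. CER1, whose fragment drove the EGFP, read 108.3 ± 19.2 MBEI (marginal) on the HFR array and 420.2 ± 193.3 MBEI on the PPP array, and TBXT, a streak and notochord factor, read 7128.6 ± 80.7 and 3691.4 ± 147.1 MBEI. Of the other passing streak markers, WNT3A (log2 difference 2.66), MSGN1 (0.82) and EOMES (0.36) also read higher on the HFR array, MIXL1 was at -0.02, and FGF8 (62.2 ± 5.8, absent, and 282.1 ± 16.5 MBEI) and WNT8A (-0.52) followed the labels. All 5 passing heart field markers (median -1.105) and all 7 anterior endoderm markers, CER1 among them (median -0.88), also read lower under the HFR label. Over all passing genes 54.8% did, with a median of -0.05. Of these markers, 4 heart field and 2 anterior endoderm genes had passed the filter through the PPP label alone. With the poly-A spike-ins added to the RNA set equal, 1 of the 5 and 3 of the 7 stayed lower under the HFR label, where the median over all passing genes was 1.39. Because CER1, TBXT and these lists ran against the labels, values are given as read under the HFR label and under the PPP label, and each direction holds between these labels only. In pieces of tissue, fewer cells that express a gene and less RNA per cell cannot be told apart.

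TWIST1 and ZEB2 were higher under the PPP label, SNAI1, SNAI2 and VIM differed by less than 1.5-fold, and ZEB1 and PRRX1 were lower under the HFR label by an intermediate amount. These calls depend on the scaling: with the poly-A spike-ins added to the RNA set equal, SNAI1, SNAI2 and VIM were past 2-fold toward the HFR label (1.56, 1.74 and 1.37), ZEB1 and the brightest PRRX1 probe set read higher there (0.83 and 0.55), ZEB2 was within 2-fold (-0.55) and TWIST1 stayed at -2.59. Of the 17 probe sets, 9 passed the level filter, and 3 of these 9 (in TWIST1, ZEB2 and PRRX1) were at 2-fold or more higher under the PPP label. Over all 13393 passing probe sets that share was 5.22%. None of the 9 reached 2-fold toward the HFR label, against 3.73% of all passing probe sets. With the spike-ins set equal, 3 of the 9 were at 2-fold toward the HFR label and 1 toward the PPP label. On that scale 5970 of all 7389 passing genes were at 2-fold toward the HFR label and 17 toward the PPP label. Their median was 1.39. Counted by gene, with the brightest probe set standing for each, 2 of 7 were at 2-fold under the PPP label (TWIST1 and ZEB2, against 4.25% of 7389 passing genes) and 0 of 7 under the HFR label (against 3.86%), so that 2 of 7 differed either way, against 8.11%. Of the 9 passing probe sets 7 lay below 0, against 56.3% of all that passed, and by gene 5 of 7 did, against 54.8%. TWIST1 alone went past 4-fold toward the PPP label, 1 of the 9 probe sets, against 0.612% of all. The TWIST1 probe set and both passing PRRX1 probe sets passed through the PPP label alone, so a difference toward that label was partly built into their passing. Under the PPP label 11 of the 17 probe sets were called present, with at least 1 for each gene, and under the HFR label 7 were, with TWIST1 the only gene that had none.

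**Figure D1:**
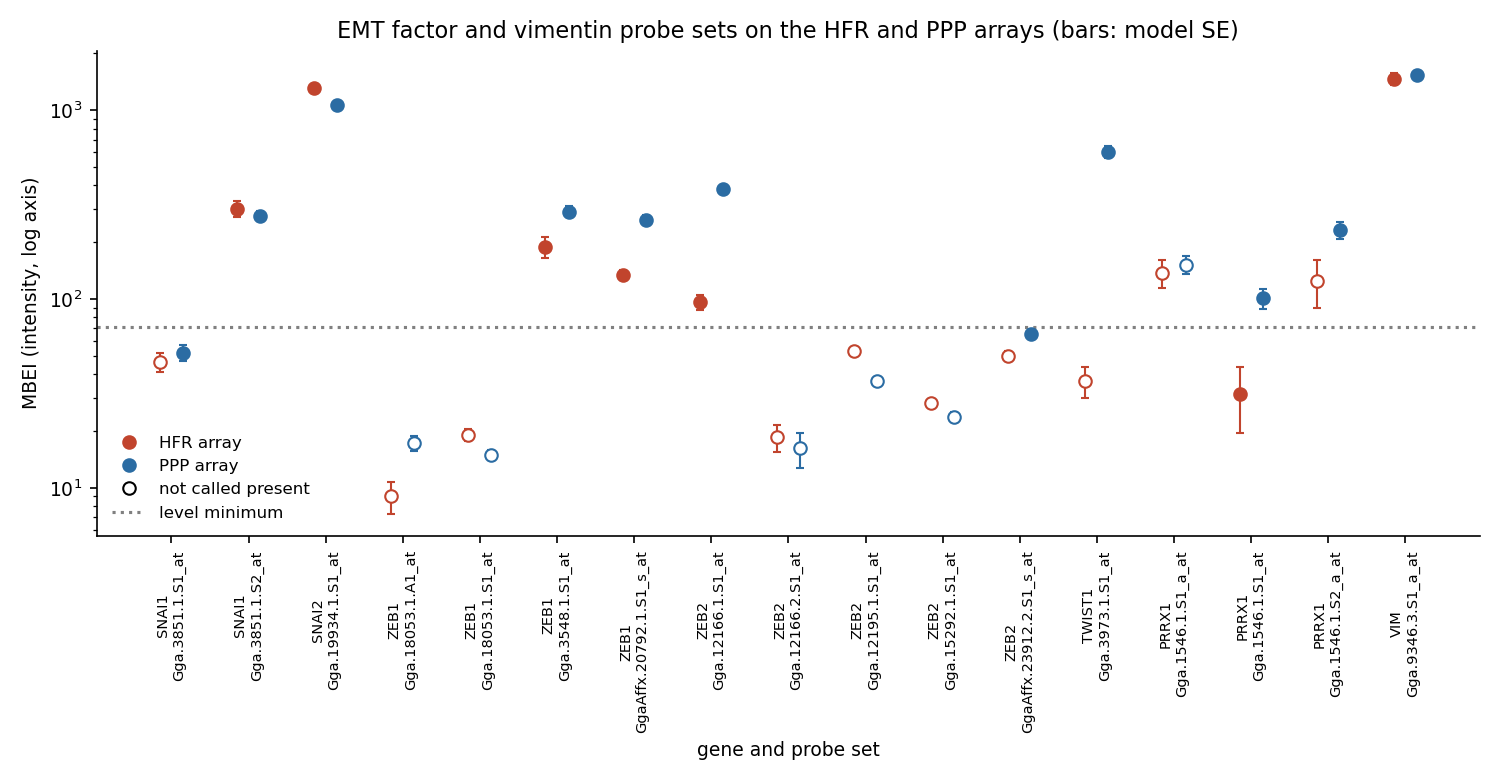
MBEI (log axis) of each of the 17 probe sets under the HFR label (red, left) and under the PPP label (blue, right). Bars are model SEs within an array, open points were not called present, and the dotted line is the level minimum of 70.8 MBEI. TWIST1 and the brightest ZEB2 probe set are far apart between the arrays, while the SNAI2 and VIM points nearly touch.

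The Snail repressors differed little. SNAI2 (Gga.19934.1.S1_at) read 1312.8 ± 20.7 MBEI under the HFR label and 1068.4 ± 24.2 MBEI under the PPP label, present on both. It was thus 1.23-fold higher under the HFR label, with a log2 difference of 0.30 and a propagated SE of 0.04. That is over 2 SEs from 0 by the model error, and the interval of 2 SEs runs from 0.22 to 0.38. A total of 2870 passing probe sets, counting SNAI2, lay at or above its difference, and its size equals the median gap of 0.30 between 2 probe sets of the same gene, described with ZEB1. SNAI1 had a pair of probe sets. The brighter (Gga.3851.1.S2_at) read 300.7 ± 29.6 MBEI under the HFR label and 276.7 ± 16.4 MBEI under the PPP label, present on both. Its log2 difference of 0.12 was smaller than its SE of 0.17, so SNAI1 was not distinguishable between the arrays. The dimmer (Gga.3851.1.S1_at) lay under the level minimum, at 46.4 ± 5.4 MBEI (absent) and 52.0 ± 4.9 MBEI (present). Its log2 difference of -0.16 had the other sign and was also within its SE of 0.22. SNAI2 minus SNAI1 came to 0.18 in log2 difference with an SE of 0.17, which does not separate the paralogs.

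ZEB2 differed by more than ZEB1. Its brightest probe set (Gga.12166.1.S1_at) read 96.4 ± 8.7 MBEI under the HFR label and 383.3 ± 8.9 MBEI under the PPP label. It was called present on both, so this fold is measured on both sides and is no bound: 3.98-fold higher under the PPP label, with a log2 difference of -1.99 (SE 0.13). Of 13393 passing probe sets, 84 had a larger value in that direction, bounds among them. The other 4 ZEB2 probe sets read under the level minimum on both arrays. Of these, GgaAffx.23912.2.S1_s_at pointed the same way, with 50.1 ± 3.2 MBEI (absent) under the HFR label and 65.5 ± 3.6 MBEI (present) under the PPP label. The remaining 3 were absent on both arrays, between 18.5 and 52.9 MBEI under the HFR label and between 16.2 and 37.0 MBEI under the PPP label, with log2 differences of 0.19, 0.23 and 0.52. Among all 20131 probe sets absent on both arrays, the central 95% of log2 differences ran from -0.56 to 0.72 around a median of 0.13, and these 3 lay inside that range. The ZEB2 difference therefore rests on 1 probe set, and no second probe set of the gene measured it at a comparable signal.

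ZEB1 was lower under the HFR label with both of its passing probe sets, each under 2-fold. Gga.3548.1.S1_at read 189.5 ± 24.9 MBEI under the HFR label and 290.5 ± 18.9 MBEI under the PPP label, 1.53-fold higher under the PPP label (log2 difference -0.62, SE 0.21). GgaAffx.20792.1.S1_s_at read 134.4 ± 8.6 and 263.7 ± 14.9 MBEI in the same order, 1.96-fold (log2 difference -0.97, SE 0.12). All 4 of these readings were called present, and the s suffix marks a probe set that may read more than 1 gene. The log2 differences were 0.36 apart with an SE of 0.25, so these probe sets differed from each other by less than 2 SEs. The ZEB1 pair also sat close to the usual case. Among 1843 genes with exactly 2 passing probe sets the median gap between their log2 differences was 0.30, and it was 0.84 at the 90th percentile. That median gap is larger than the SEs of SNAI2 (0.04), VIM (0.11), the brightest ZEB2 probe set (0.13), SNAI1 (0.17), ZEB1 (0.21) and, narrowly, TWIST1 (0.29), and smaller than that of the brightest PRRX1 probe set (0.43). Probe sets of 1 gene may read different transcripts, and the source of these gaps was not tested. The last ZEB1 probe sets, Gga.18053.1.A1_at and Gga.18053.1.S1_at, were absent on both arrays at 9.0 and 19.1 MBEI under the HFR label and 17.3 and 14.9 MBEI under the PPP label, with log2 differences of -0.94 and 0.36, the first outside the central 95% of such probe sets. ZEB2 minus ZEB1 was -1.38 in log2 difference (SE 0.25), so the ZEB paralogs differed by more than the model error and by more than the 90th percentile of that gap.

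TWIST1 had the largest difference of the 7 genes. Its only probe set (Gga.3973.1.S1_at) read 36.7 ± 6.9 MBEI (absent) under the HFR label and 600.5 ± 44.3 MBEI (present) under the PPP label. It was at least 16.4-fold higher under the PPP label, a log2 difference of -4.03 with an SE of 0.29. The fold is called a lower bound only because the dim reading was not called present. By model error, the interval of 2 SEs runs from -4.615 to -3.45. With the poly-A spike-ins set equal the log2 difference was -2.59, and with a pseudocount of 36.5 MBEI it was -3.12. As a bound in the same sense, the TWIST1 log2 difference was at least 2.04 (SE 0.32) further toward the PPP label than that of ZEB2. Against SNAI2 it was at least 4.33 (SE 0.29) further. With 2 arrays, likeness of pattern is only closeness of a single value. The closest values were those of the neuronal membrane protein SLITRK4 (-4.05), the endothelial cadherin CDH5 (-3.97), the Iroquois homeobox factor IRX2 (-4.11), the blood precursor factor TAL1 (-3.76) and the neuropeptide receptor NPBWR1 (-4.30). CDH5, IRX2 and NPBWR1 are bounds like TWIST1, so how near these genes lie to it was not measured.

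PRRX1 read lower under the HFR label with both of its passing probe sets, whose amounts did not differ beyond their model errors. Both had passed through the PPP label alone, so their shared direction was partly built into their passing. Gga.1546.1.S1_at read 31.5 ± 12.0 MBEI under the HFR label and 100.8 ± 12.4 MBEI under the PPP label, present on both, 3.20-fold higher under the PPP label. The error of the reading under the HFR label was 38.1% of its value, and the log2 difference of -1.68 had an SE of 0.58 (interval of 2 SEs from -2.83 to -0.52). Gga.1546.1.S2_a_at, the brightest of the 3, read 125.2 ± 35.3 MBEI (marginal) and 232.1 ± 24.7 MBEI (present), at least 1.85-fold higher under the PPP label. Its log2 difference was -0.89 (SE 0.43, interval of 2 SEs from -1.76 to -0.02). Gga.1546.1.S1_a_at read 137.8 ± 23.0 and 152.3 ± 15.9 MBEI, a log2 difference of -0.14 (SE 0.28). It was absent on both arrays, so no fold is called from it. The passing pair lay 0.79 apart with an SE of 0.72, under 2 SEs, though a wider gap than in 88.3% of genes with 2 passing probe sets. Since the value of Gga.1546.1.S2_a_at is a bound, this gap was not fully measured. PRRX1 had the widest relative errors of the 7 genes under the HFR label, where the median over all present probe sets was 4.71%.

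VIM did not differ beyond its model error. Its probe set (Gga.9346.3.S1_a_at, where the a suffix marks probes shared by transcripts of 1 gene) read 1468.2 ± 106.5 MBEI under the HFR label and 1545.4 ± 34.6 MBEI under the PPP label, present on both. The log2 difference of -0.07 (SE 0.11) has an interval of 2 SEs from -0.29 to 0.15, which leaves out any 2-fold difference by model error alone. It lay near the middle of the distribution, with 49.5% of passing probe sets lower. ZEB1 minus VIM was -0.54 in log2 difference (SE 0.24) and PRRX1 minus VIM, a bound since PRRX1 was marginal under the HFR label, was -0.82 (SE 0.45), under 2 SEs. The genes closest to VIM in log2 difference were CPZ, RNF130, STK10, ESF1 and FOXN3, at a part of the distribution where very many genes lie.

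**Figure D2:**
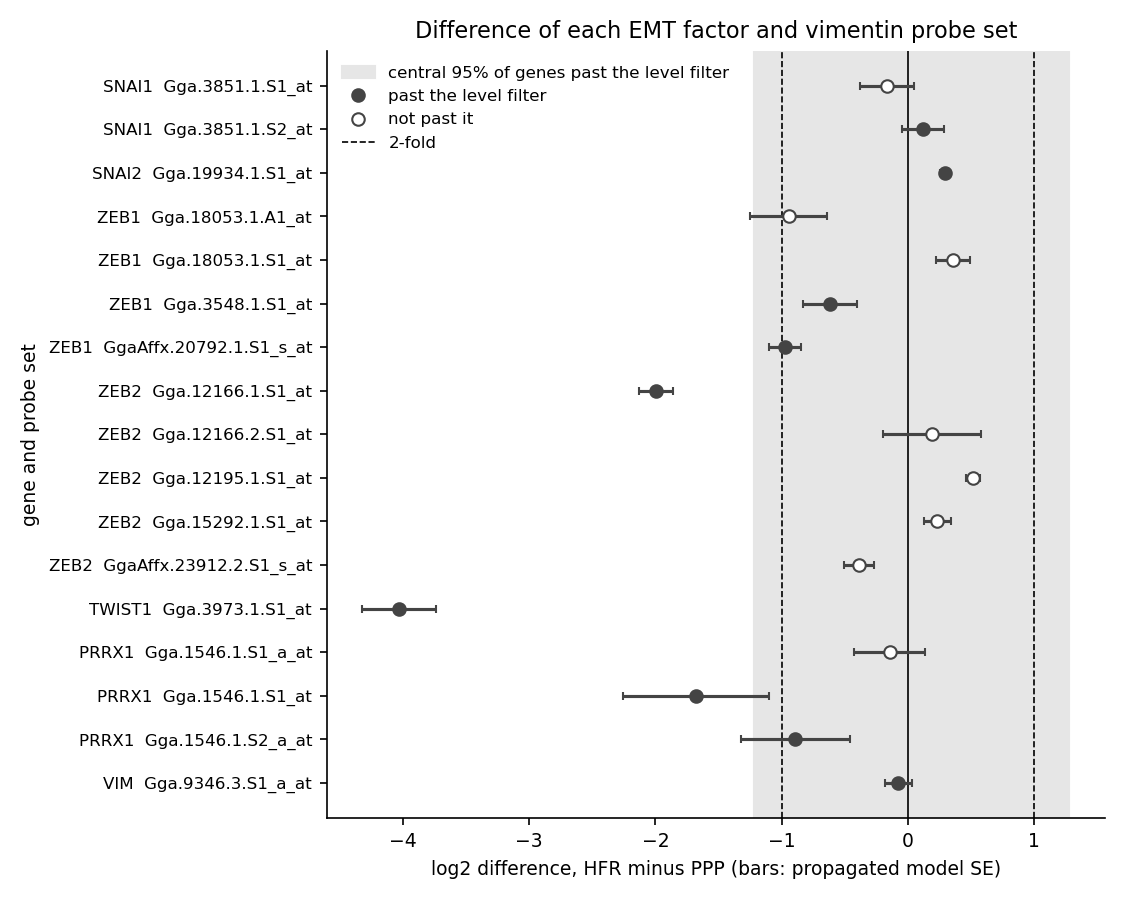
Log2 difference, HFR minus PPP, of each probe set with its propagated model SE. Filled points passed the level filter, the grey band holds the central 95% of 7389 passing genes (-1.22 to 1.28), and the dashed lines mark 2-fold. TWIST1 at -4.03, ZEB2 at -1.99 and a PRRX1 probe set at -1.68 lie left of the band; setting the poly-A spike-ins equal moves each point right by 1.44, which leaves these 3 below 0 and puts the other 14 above 0.

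**Figure D3:**
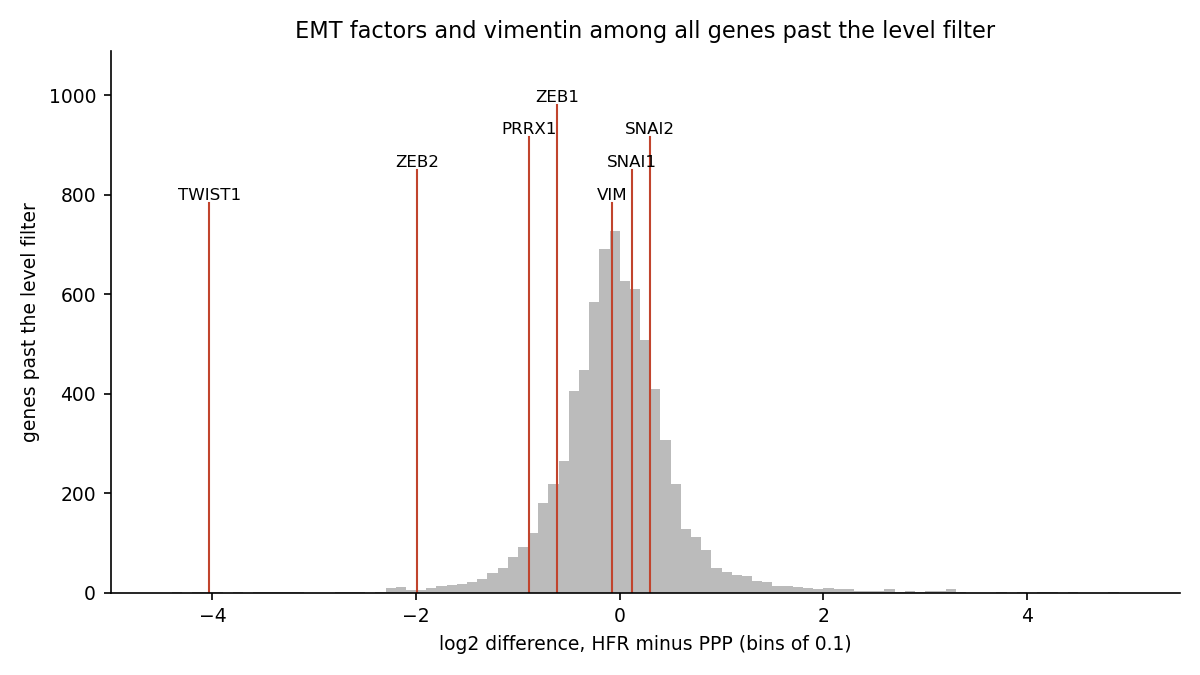
Number of passing genes by log2 difference, HFR minus PPP, in bins of 0.1, with red lines at the 7 genes, each by its brightest probe set. VIM (-0.07), SNAI1 (0.12) and SNAI2 (0.30) lie in the body of the distribution, ZEB1 (-0.62) and PRRX1 (-0.89) on its left shoulder, and ZEB2 (-1.99) and TWIST1 (-4.03) in the left tail; with the poly-A spike-ins set equal the whole distribution and all 7 lines shift by 1.44, and only ZEB2 and TWIST1 stay below 0.

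Another scaling kept the order of the genes but changed the sign of some. The 33 poly-A spike-in probe sets present on both arrays, added to the RNA before amplification, had a median log2 difference of -1.44 (range -2.11 to -0.87). Setting them equal added 1.44 to every log2 difference and moved the median of passing genes from -0.05 to 1.39. On that scale TWIST1 was at -2.59 and ZEB2 at -0.55, both still lower under the HFR label. SNAI2 (1.74) and SNAI1 (1.56) kept their sign, while VIM (1.37), ZEB1 (0.83) and the brightest PRRX1 probe set (0.55) changed theirs. Differences between genes, such as TWIST1 minus SNAI2, are the same on both scales. Of the other 14 settings tried, the fold thresholds, level filters, error limits and value table could not change the value of a gene. The rest (other scalings, a pseudocount, other choices of probe set) kept the sign of all 7 genes, wherever the gene had a value.

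**Figure D4:**
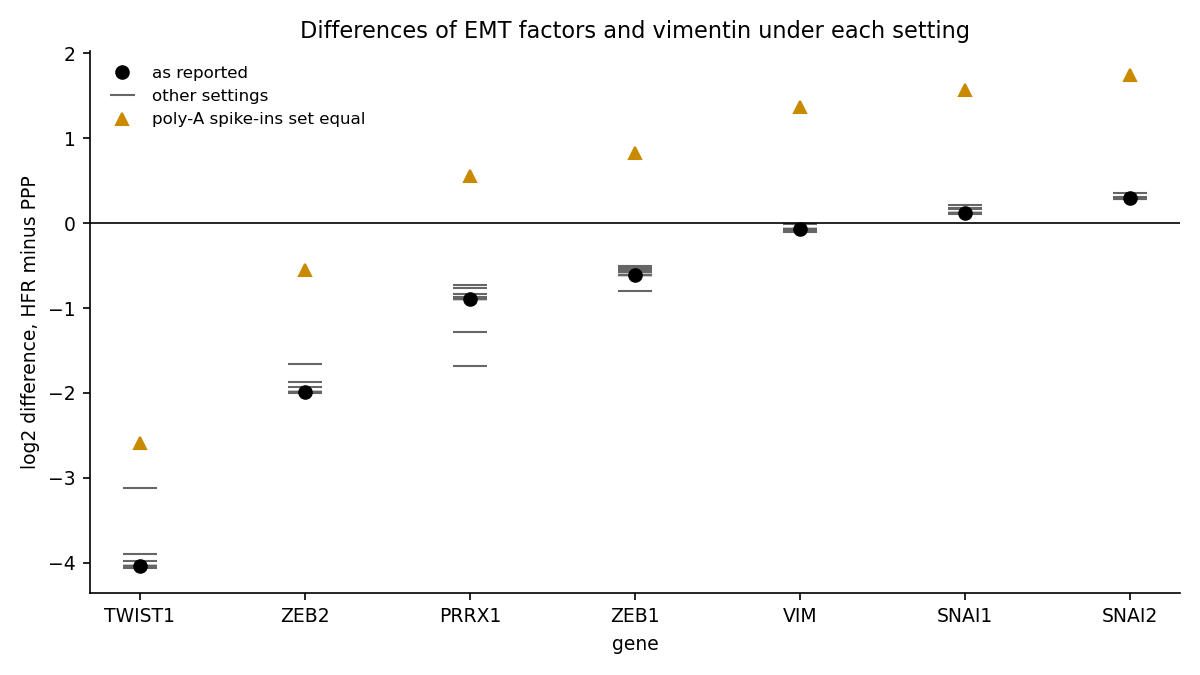
Log2 difference, HFR minus PPP, of the 7 genes as reported (black points), under the other settings (grey dashes) and with the poly-A spike-ins set equal (triangles). ZEB1, PRRX1 and VIM lie below 0 as reported and above 0 with the spike-ins set equal, while TWIST1 and ZEB2 are below 0 under every setting shown.

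Lists of epithelial and mesenchymal genes were described as well, and whether these factors act on the listed genes in this tissue was not tested. Of 31 epithelial genes on the array 20 passed, with 9 at 2-fold or more higher under the HFR label and 1 under the PPP label, against 3.86% and 4.25% of all passing genes. Of the 20, 18 lay above 0 and 2 below it, while 54.8% of all passing genes lay below 0. Of these 20, 3, EVPL among them, had passed through the HFR label alone and 1, CRB2, through the PPP label alone. CDH1, which SNAI and ZEB proteins repress directly, read 850.4 ± 64.3 MBEI under the HFR label and 92.4 ± 27.0 MBEI under the PPP label, 9.20-fold higher under the HFR label. The claudins CLDN1 (8.02-fold) and CLDN3 (2.80-fold), the cornified envelope protein EVPL (4.35-fold), the polarity scaffold PATJ (3.02-fold), EPCAM (2.88-fold) and CDH3 (2.57-fold) pointed the same way, while the polarity protein CRB2 was at least 2.38-fold higher under the PPP label (but higher under the HFR label with the spike-ins set equal). The junction genes PARD3 and TJP1 and the keratin KRT7 were nearest to no change (-0.06, 0.08 and 0.08). The list's median log2 difference was 0.62, against -0.05 over all passing genes. Of 37 mesenchymal genes on the array 19 passed, with 0 at 2-fold under the HFR label and 5 under the PPP label, against the same 3.86% and 4.25%. Of the 19, 17 lay below 0, against the same 54.8%. Of these 19, 7, MMP2, COL5A2 and FBN2 among them, had passed through the PPP label alone. These 5 were the gelatinase MMP2 (at least 9.37-fold), the collagens COL5A2 (6.09-fold) and COL1A2 (3.66-fold), the mesenchymal cadherin CDH11 (4.48-fold) and the fibrillin FBN2 (at least 4.37-fold). The 2 above 0, named after their values were seen, were fibronectin FN1 (0.78) and versican VCAN (0.46), and ITGB3, COL6A1 and TGFBI were nearest to no change (-0.08, -0.08 and -0.24). The median was -0.65. With the poly-A spike-ins set equal it was 0.79, the 5 genes at 2-fold stayed below 0 and the other 14 lay above it. The epithelial median was then 2.07 and the median over all passing genes 1.39. The mesenchymal median thus changed sign but stayed below that of all passing genes. No test across these lists was made, and the shares describe this pair of arrays.

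**Figure D5:**
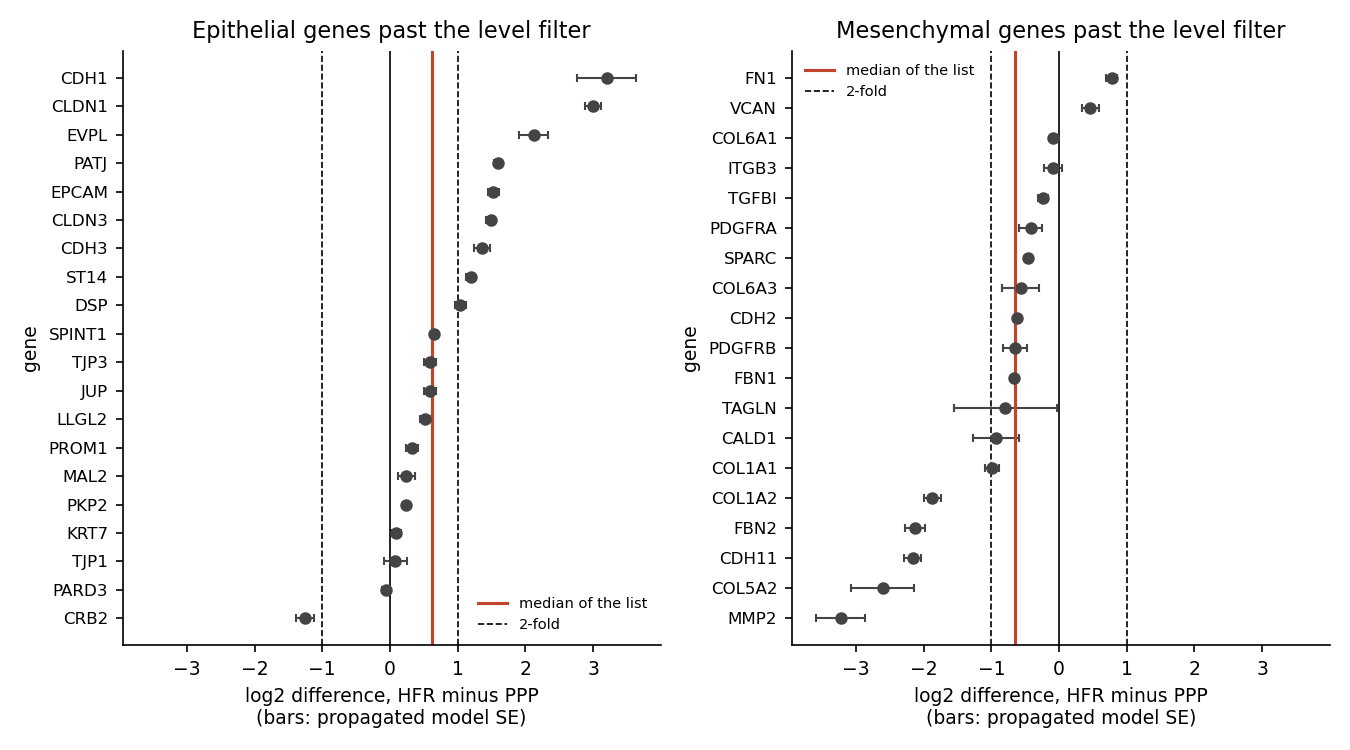
Log2 difference, HFR minus PPP, with propagated model SE, of the 20 epithelial genes (left panel) and the 19 mesenchymal genes (right panel) that passed the level filter. Red lines are the list medians (0.62 and -0.65) and dashed lines mark 2-fold. With the poly-A spike-ins set equal all points shift right by 1.44. The mesenchymal median becomes 0.79, against 1.39 over all passing genes.

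Cofactors of these transcription factors and their relatives were listed as well. Of 9 E protein, ID and HEY genes, all of which passed, 0 reached 2-fold in either direction, near the background of 8.11% of all passing genes, and the median was -0.01. With the spike-ins set equal 8 of these 9 were at 2-fold or more higher under the HFR label, as were 5970 of all 7389 passing genes. The E proteins TCF3 (1727.4 ± 43.1 and 1785.4 ± 84.0 MBEI under the HFR and PPP labels) and TCF12 (-0.00), with which TWIST1 pairs, and ID2, which sequesters them (-0.01), were among those nearest to no change. Of 20 passing corepressors and regulators of SNAI and ZEB proteins (25 on the array), 0 reached 2-fold, against the same 8.11%. With the spike-ins set equal 16 did, toward the HFR label, against the same 5970 of 7389 genes. CTBP2, a corepressor of ZEB proteins, was at -0.02, the methyltransferase EZH2 at 0.01 and the demethylase KDM1A, a SNAI1 partner, at 0.02. The list's median was -0.15. Among 9 passing relatives of the EMT factors (16 on the array) 3 were at 2-fold higher under the PPP label and 0 under the HFR label, against 4.25% and 3.86% of all passing genes. Below 0 were 9 of 9, against 54.8%, with a median of -0.28. Of the 9, 3, SOX4 and HAND2 among them, had passed through the PPP label alone. Those at 2-fold were the organizer homeobox factor GSC (3.00-fold), SOX4 (2.21-fold) and HAND2 (at least 2.15-fold), and with the spike-ins set equal GSC alone of the 9 was below 0. The closest paralogs, TWIST2 and PRRX2, were absent on both arrays, TWIST2 at 13.1 ± 8.8 and 17.1 ± 9.3 MBEI. Of genes listed as epithelial factors that oppose the transition, 6 of 16 passed, 3 of them, CDX2 and ESRP1 included, through the HFR label alone. At 2-fold were CDX2, at least 3.89-fold higher under the HFR label, and 0 under the PPP label, against the same 3.86% and 4.25%. The median was 0.50, and with the spike-ins set equal it was 1.94, against 1.39 over all passing genes. The splicing factors ESRP1 and ESRP2, which ZEB proteins repress, had log2 differences of 0.70 and 0.39, both chosen after their values were seen.

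Passing markers of blood and endothelium, heart field and anterior endoderm lay toward the PPP label, as TWIST1 and ZEB2 did, while other marker lists did not all do so. The part of these cell types in the differences was not tested. For blood and endothelium, 3 of 5 passing markers (7 on the array) were at 2-fold higher under the PPP label, against 4.25% of all passing genes. Of these 5, 3 had passed through that label alone, so the direction was partly built into their passing. The summed level of the 7 was 1960.1 MBEI under the HFR and 4195.3 MBEI under the PPP label, with LMO2 absent on both by the probe set used. The 3 at 2-fold were CDH5, TAL1 and the VEGF receptor FLT1 (-2.21), and they stayed below 0 with the spike-ins set equal. For the heart field all 5 passing markers (8 on the array) were higher under the PPP label, as were 54.8% of all passing genes. At 2-fold were 3 of them, against the same 4.25%, and 4 of the 5 had passed through that label alone. The sums were 3414.7 and 5291.1 MBEI, with TBX5 and MEF2C absent on both. With the spike-ins set equal MYOCD alone of the 5 passing heart field markers stayed below 0. For anterior endoderm 3 of 7 (CER1, HHEX and SHISA2) were at 2-fold under the PPP label, against the same 4.25%. Of the 7, 2 had passed through that label alone. The sums were 6973.1 and 11933.5 MBEI, and the 3 at 2-fold stayed below 0 with the spike-ins set equal. Extraembryonic endoderm markers lay the opposite way, with 5 of 5 passing markers (8 on the array) at 2-fold higher under the HFR label, against 3.86% of all passing genes. Of these 5, 3 had passed through the HFR label alone. The sums were 8235.9 and 682.6 MBEI, with AFP, APOB and RBP4 absent on both. Streak markers were mixed, with 1 of 7 passing markers at 2-fold on each array, against the same 3.86% and 4.25%. The sums were 11254.1 and 6832.9 MBEI, with TBX6 absent on both. The neural crest factors SOX10, FOXD3 and PAX7, which with SNAI2 mark that tissue at later stages, were absent on both arrays. Of the 6 listed crest markers, 3 were called present on each array. ETS1 was among these, at 336.1 ± 13.9 MBEI under the HFR label and 394.7 ± 5.0 MBEI under the PPP label. The 2 that passed had log2 differences of -0.23 (ETS1) and -0.88, both above 0 with the spike-ins set equal.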

How the data were processed

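Probe set intensities (MBEI) were deposited by the authors, who per the series' design text normalized to a baseline array with an invariant set and fitted the perfect match probes of 6 arrays, 4 of them from another study; the sources used here do not name the fitting program, and the submitters' processing notes name GCOS 1.3. Detection calls and standard errors are deposited per the file headers. The 12 columns of the other arrays were not used. In the value table of the series, 38535 of 38535 probe sets had the same MBEI.

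After leaving out 153 control and reporter probe sets, symbols were taken from the platform annotation (27168 probe sets with 1 symbol, 177 with several, 11037 not listed) and updated through gene IDs with RefSeq names of assembly GRCg7b. Where the dim array was not called present, folds are lower bounds against the higher of its value and the lowest present MBEI (6.5 on the HFR array, 4.8 on the PPP array). A value listed at 0 was set to 0.1. Differences were computed with Python 3.11.15 and tested on simulated data. There is no replicate and no test. The genes, 9 pathway lists and 9 marker lists were chosen with earlier results of these data known. Named are all probe sets of the 7 genes, up to 8 members per pathway list at 2-fold, the 3 nearest to no change, any marker, and the 5 genes closest to TWIST1 and to VIM. The 15 alternatives cover scaling, pseudocount, level filter, threshold, model error, probe sets and value table.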

Additional observations from a re-analysis of the deposited data

How the results depend on the processing

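No paired analysis was possible because each tissue has 1 array. Without replicates or signal from a second array, model errors and probe sets of 1 gene are the only measures of precision. With the poly-A spike-ins set equal, 3 probe sets of the 7 genes were at 2-fold higher under the HFR label (instead of 0). Under the PPP label 1 was (instead of 3). Of all genes, 5970 were at 2-fold under the HFR label and 17 under the PPP label (instead of 285 and 314). The median was then 2.07 for epithelial and 0.79, reversed in sign, for mesenchymal genes (instead of 0.62 and -0.65). Over all passing genes it was 1.39 (instead of -0.05), so the mesenchymal median stayed below it. Thresholds of 1.5-fold and 4-fold gave 6 and 1 probe sets of the 7 genes higher under the PPP label, and 698 and 963 genes at 1.5-fold but 73 and 44 at 4-fold under the HFR and PPP labels. With a pseudocount of 36.5 MBEI, 181 genes were higher under the PPP label. The epithelial median was 0.43 without the level filter, 1.04 with the filter at the 75th percentile and with presence on both arrays, and 0.83 with suffixed probe sets (s, x, a) left out, and the mesenchymal median was -0.12 without the filter. The log2 difference ran from -4.06 to -3.12 for TWIST1 and from -1.997 to -1.659 for ZEB2 over the settings other than the spike-ins, the smallest size of each coming with the pseudocount. PRRX1 ran from -1.68 to -0.73, since leaving out suffixed probe sets changed the probe set that stood for it. ZEB1 ran from -0.79 to -0.51, VIM from -0.11 to -0.01, SNAI1 from 0.11 to 0.21 and SNAI2 from 0.28 to 0.36. Without suffixed probe sets VIM had no value.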

Other observations

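The genes beside ZEB2 also read lower under the HFR label. Taking the nearest protein-coding gene with a probe set on each side of the 7 genes, in RefSeq order on assembly GRCg7b and by position alone, gave 14 neighbours, of which 7 passed the level filter. Of these 7, 1 was at 2-fold under the HFR label and 1 under the PPP label, against 3.86% and 4.25% of all passing genes. Over all passing genes 54.8% read lower under the HFR label. GTDC1, a glycosyltransferase-like gene next to ZEB2, read 196.3 ± 10.1 MBEI under the HFR label and 491.4 ± 6.6 MBEI under the PPP label (log2 difference -1.32, SE 0.08). Its second probe set had -1.19. On the other side the activin receptor ACVR2A read 1084.8 ± 46.1 and 2063.9 ± 94.8 MBEI (-0.93, SE 0.09), which is under 2-fold. The second ACVR2A probe set was absent on both arrays, at 27.6 and 24.8 MBEI (0.15). The other 5 passing neighbours of the 7 genes ran from -0.33 to 2.68. Beside SNAI2, C8orf22 was 6.40-fold higher under the HFR label, at 775.2 ± 51.0 against 121.1 ± 4.8 MBEI, where SNAI2 itself was 1.23-fold higher. Neither neighbour of TWIST1, HDAC9 or FERD3L, passed the filter.

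Other gene lists around the EMT factors are given as values. Of 8 passing intermediate filament and linker genes (21 on the array), 7 were within 2-fold, against 91.9% of all passing genes, the median was -0.02, and the neurofilament NEFM was 8.02-fold higher under the HFR label (586.2 against 73.1 MBEI). Of 27 passing genes of the cell machinery of ingression (31 on the array), 3 were at 2-fold higher under the HFR label and 0 under the PPP label, against 3.86% and 4.25% of all passing genes, with a median of 0.18. These were the small GTPase RHOB (3.34-fold), the sulfatase SULF1 (2.70-fold) and EPB41L5 (2.36-fold), a FERM protein needed for gastrulation EMT in the mouse. RHOA and its exchange factor NET1 had log2 differences of 0.12 and 0.11. Of 22 passing inducers of ingression (28 on the array), 5 were at 2-fold under the HFR label and 1 under the PPP label, against the same 3.86% and 4.25%, with a median of 0.14. The 5 were led by WNT3A (6.32-fold), and the 1 was FGF8, at least 4.54-fold higher under the PPP label. FGF3, among the 5, had passed through the HFR label alone and FGF8 through the PPP label alone. With the spike-ins set equal the medians of these 3 lists were 1.42, 1.62 and 1.59, against 1.39 over all passing genes. FGF8 alone of their passing genes lay below 0.

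TWIST3, a further Twist gene of birds, was absent on both arrays at 141.7 ± 11.3 and 139.6 ± 8.3 MBEI, and was looked up after other values were seen. Of the remaining marker lists, 2 of 6 neural crest markers passed with 0 at 2-fold, against 8.11% of all passing genes. Of 7 somite markers 1 passed (MEOX1, -0.81) and of 7 lateral plate markers 1 passed (HAND2, -1.10), both through the PPP label alone. Of 4 passing neural plate and epiblast markers 2 were at 2-fold under the HFR label (CDH1 and SOX3) and 1 under the PPP label (GBX2), against 3.86% and 4.25% of all passing genes. With the poly-A spike-ins set equal, 1.44 is added to each of these log2 differences, which puts ACVR2A, GTDC1, MEOX1 and HAND2 above 0.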
